A study of Bos taurus with 11 samples.

Results

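Solute carriers are the membrane proteins that move small molecules across the plasma membrane and the membranes of organelles, and their transcripts were followed here in single bovine blastocysts. The transcripts were taken by name and level. A transcript was included when its bovine symbol began with SLC followed by a digit and its mean normalized count reached 10 over the WT control embryos or over the KO embryos of a table. SLC34A2 was left out. In the table of GATA3 KO, 78 of 175 listed solute carrier transcripts met the limit, among 8576 transcripts in all. In the table of CDX2 KO, 117 of 265 met it, among 12047 transcripts. The 2 tables had 76 of these transcripts in common, which is 97.4% of the 78 and 65.0% of the 117, and 119 met the limit in either table.

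The study asked what the trophectoderm factors GATA3 and CDX2 do in the bovine embryo, and RNA was sequenced from early blastocysts produced in vitro and collected at day 7 after fertilization. Every embryo, WT control included, had received BE3 mRNA as a zygote, and the KO embryos had also received a mix of sgRNAs against GATA3 or against CDX2. BE3 is a cytosine base editor, which places premature stop codons in the targeted gene, and an injected embryo may hold cells of more than 1 genotype. The 11 libraries, each from 1 embryo, comprised 3 of WT control and 4 of either knockout.

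The blastocyst has an outer epithelium, the trophectoderm, that draws salt and water inward to form its cavity, and it takes sugars, pyruvate, lactate and amino acids from the fluid around it. Ion exchangers and cotransporters of the SLC4, SLC9 and SLC12 families act with the sodium pump in such epithelia. The SLC2, SLC16, SLC7 and SLC38 families bring in fuels and amino acids, SLC30 and SLC39 proteins move zinc, and SLC25 proteins are carriers, nearly all of the mitochondrial inner membrane.

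The 2 tables were normalized separately and share the 3 WT control embryos, so their values are read only within a table. Between 150057 and 540775 reads per embryo were counted for the comparison with GATA3 KO. For CDX2 KO they numbered 100731 to 662962, the fewest in CDX2 KO embryo 3. GATA3 itself stood at 87.6, 71.3 and 80.8 normalized counts in the WT control embryos and at 13.0, 12.9, 13.1 and 9.85 in GATA3 KO embryos 3 to 6. CDX2 stood at 8.88, 11.1 and 6.88 in WT control and at 3.68, 4.66, 1.66 and 4.30 in CDX2 KO embryos 2 to 5. There 3 counts correspond to 3.68, 6.99, 2.49 and 1.61, so embryos 2, 3 and 4 held at most 3. In the table of GATA3 KO, CDX2 stood at 7.10, 9.73 and 4.66 in WT control and at 2.89, 3.45, 0.0 and 2.46 in KO. Lower CDX2 values were therefore not particular to CDX2 KO. GATA3 in the table of CDX2 KO was at 96.4 to 128.8 in WT control and at 122.6, 30.3, 99.5 and 91.3 in KO. All 8 trophectoderm markers were listed in both tables. The 4 Y-linked transcripts examined gave 29 to 98 counts in the WT control embryos, 0, 0 and 2 in GATA3 KO embryos 3, 4 and 5, and 68 in GATA3 KO embryo 6. In the table of CDX2 KO they gave 46 to 149 counts in WT control, 0 in each of KO embryos 2, 3 and 4, and 155 in KO embryo 5. The presence of more than 3 Y-linked counts and the genotype can therefore be told apart only through 1 KO embryo in each table. Each blastocyst was measured whole, so fewer cells of a type and less RNA per cell cannot be told apart.

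In GATA3 KO, the amino acid carriers SLC7A4, SLC43A1 and SLC7A5, the zinc carrier SLC39A4 and the anion exchanger SLC4A2 were lower in every KO embryo than in any WT control embryo. SLC7A4 was the single solute carrier past the threshold (limma, Benjamini-Hochberg adjusted p no higher than 0.05 together with a fold change that reached 1.5 upward or 0.6 downward). The rule used levels in these same embryos, so the counts lead with the 46 transcripts that reached a mean of 10 in both groups, which neither group alone had brought in. Of the 46, 1 was past the threshold (2.17%), beside 1.96% of the 3677 transcripts of the whole table that reached 10 in both groups. At an unadjusted p under 0.05 there were 11 of 46 (23.9%), beside 20.8%. Every KO embryo lay below every WT control embryo for 6 of the 46 (13.0%), beside 5.79% of all such transcripts. Every KO embryo lay above every WT control embryo for 2 of the 46 (4.35%), beside 11.4%. The median log2 fold change of the 46 was 0.08, with 25 above 0, beside a median of 0.10 for the 3677.

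Another 15 transcripts that met the rule were tested because their mean over all 7 embryos was at least 10 although 1 group fell short of it, which made 61 tested of 4271. The 15 include SLC7A6OS, which met the name rule but is no transporter. Over the 61, 1 was past the threshold, beside 2.01% of all transcripts tested, of which 1.55% were higher and 0.468% lower in GATA3 KO. These 66 higher and 20 lower calls became 48 and 57 under quantile normalization, so the direction of change over the whole table depended on the scaling. An unadjusted p under 0.05 was found for 16 of the 61, beside 22.6%. All KO embryos were above WT control for 4 of the 61, beside 11.9%, and below it for 9, beside 7.05%. edgeR on the recovered counts called 2 of the 61 and 2.95% of all transcripts, and DESeq2 called 3 of the 61 and 3.7% of all.

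**Figure D1:**
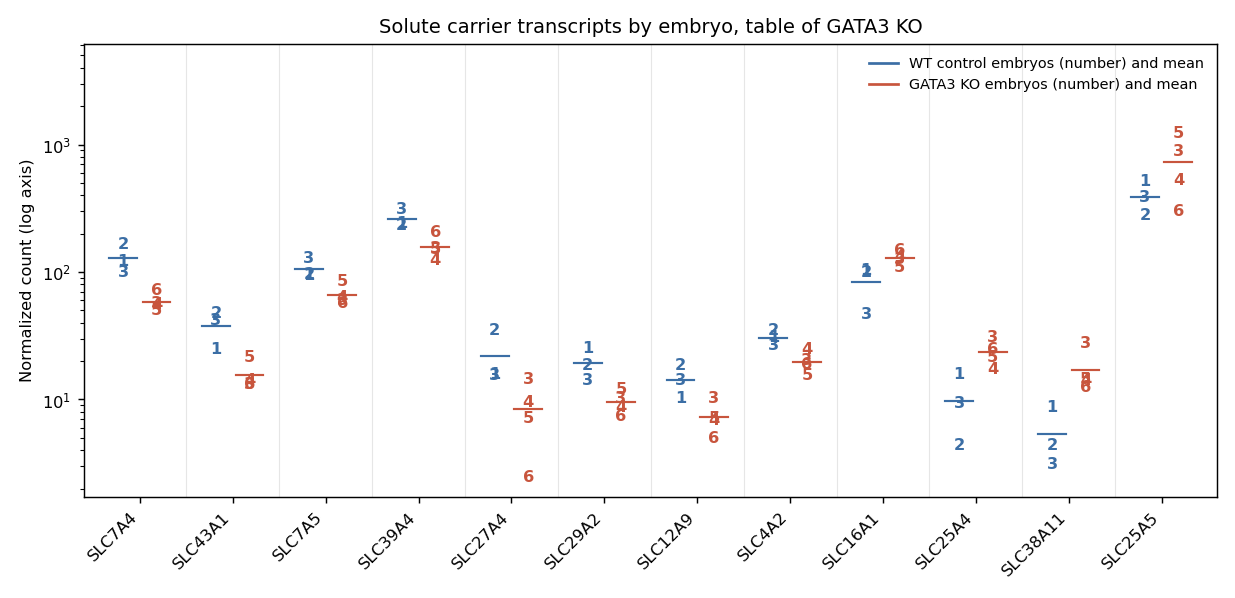
Normalized counts (log axis) of 12 solute carrier transcripts in the table of GATA3 KO, chosen after their values were seen. Each numeral is an embryo, placed at its value, with WT control in blue and GATA3 KO in red, and the short lines are group means. The first 8 transcripts had every KO embryo below every WT control embryo, the next 3 had every KO embryo above, and in SLC25A5 KO embryo 6 fell among the WT control embryos.

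Of the amino acid carriers with a mean of 10 in both groups, 2 of 11 had a log2 fold change above 0 in GATA3 KO, at a median of -0.34, beside 0.10 for all such transcripts. Their medians by embryo were -0.12, 0.11 and -0.19 in WT control and -0.91, -0.07, -0.34 and -0.62 in GATA3 KO, so KO embryo 4 lay inside the WT control range. With SLC38A11, which came in through KO alone, 9 of the 12 tested were below 0 and 3 above 0, and the counts stayed at 9 and 3 under quantile normalization and under rescaling by median ratios. SLC7A4 (NM_001192042), a relative of the cationic amino acid transporters, gave 119.9, 165.3 and 99.5 normalized counts in WT control embryos 1 to 3. It gave 56.44, 56.00, 50.02 and 71.43 in GATA3 KO embryos 3 to 6. The highest KO embryo stayed under the lowest WT control embryo, and that KO embryo, number 6, was the only one with more than 2 Y-linked counts. The log2 fold change was -1.10 (SE 0.26) with a limma adjusted p of 0.034, and the mean in KO was 0.456 of that in WT control. A term for Y-linked counts brought the log2 fold change to -0.80, with an adjusted p of 0.43. Without WT control embryo 2 they were -0.90 and 0.17. The call was also lost without WT control embryo 3 or GATA3 KO embryo 3, 4 or 5, where the log2 fold change was -1.03 to -1.27.

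SLC43A1, a carrier of leucine and other large neutral amino acids, stood at 24.5, 47.6 and 42.0 normalized counts in WT control and at 13.0, 14.2, 21.4 and 13.1 in GATA3 KO. The groups did not overlap, and 9 to 44 counts lay behind these values. Its log2 fold change of -1.22 (SE 0.32) came with a limma adjusted p of 0.052, just outside the threshold, and with 0.036 in edgeR and 0.024 in DESeq2. SLC7A5, the catalytic chain of the main exchanger for large neutral amino acids, was at 93.1, 96.2 and 127.5 in WT control and at 59.3, 63.3, 84.6 and 56.7 in GATA3 KO. Every KO embryo was again the lower, with a log2 fold change of -0.67 (SE 0.25) and a limma adjusted p of 0.13. Its heavy chain, SLC3A2, which carries SLC7A5 to the cell surface, overlapped fully between the groups at 45.1 to 63.9 and 38.6 to 64.6, with a log2 fold change of -0.18 (95% interval -0.74 to 0.39).

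SLC7A8, a second light chain that pairs with SLC3A2, lay between 28.0 and 46.5 normalized counts in WT control and between 13.0 and 31.5 in GATA3 KO. SLC15A4, a lysosomal histidine and peptide carrier, ranged from 20.5 to 41.0 and from 7.15 to 27.1. Both had 1 or more KO embryos within the WT control range. SLC38A2, the sodium-coupled carrier of small neutral amino acids, overlapped at 62.7 to 82.4 and 36.2 to 79.8. In the other direction, SLC38A11, a less studied member of the same family, had 8.68, 4.32 and 3.11 in WT control and 27.5, 14.2, 14.3 and 12.3 in GATA3 KO. In WT control embryo 3, 3 counts correspond to 4.66, so its 3.11 rests on fewer. SLC38A11 met the limit through the KO embryos alone, so this difference is a description. SLC1A5, which brings in glutamine, and SLC1A1, which brings in glutamate, had log2 fold changes of 0.52 (SE 0.36) and 0.47 (SE 0.35) with overlapping embryos.

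Of the carriers of inorganic ions, 1 of the 4 with a mean of 10 in both groups was above 0 in GATA3 KO, at a median log2 fold change of -0.30. The 10 of 11 meeting the limit that were at lower levels in KO include transcripts that WT control alone brought in, and none of the 6 tested was past the threshold. The medians of the 4 by embryo, measured from the WT control mean, were -0.04, 0.27 and -0.19 in WT control and -0.41, 0.12, -0.23 and -0.44 in GATA3 KO, so the embryos overlapped. SLC4A2, a chloride and bicarbonate exchanger, was at 30.8, 34.6 and 26.4 normalized counts in WT control and at 20.3, 24.6, 15.5 and 18.9 in GATA3 KO. Its embryos did not overlap, with a log2 fold change of -0.61 (SE 0.29) and a limma adjusted p of 0.22. The sodium and hydrogen exchanger SLC9A3 was at 13.4, 13.0 and 9.33 in WT control and at 4.34, 4.31, 5.96 and 3.28 in GATA3 KO. SLC12A9, of the cation and chloride cotransporter family, was at 10.3, 18.4 and 13.99 in WT control and at 10.1, 6.89, 7.15 and 4.93 in GATA3 KO. SLC9A3 and SLC12A9 met the limit through WT control alone, and both had every KO embryo below every WT control embryo. The closest embryos of SLC12A9, at 10.3 and 10.1, were apart by less than 1 count of GATA3 KO embryo 3. In that embryo SLC9A3 was at 3 counts, which correspond to 4.34. SLC20A1, which takes up phosphate, was the exception of the class at 28.0 to 38.9 in WT control and 33.3 to 51.7 in GATA3 KO.

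Of the metal ion carriers with a mean of 10 in both groups, 7 of 8 were above 0 in GATA3 KO, at a median log2 fold change of 0.29, and none was past the limma threshold. The other 3 tested, SLC30A2, SLC30A7 and SLC39A1, came in through KO alone, and over the 13 that met the limit 10 had the higher mean in KO and 3 in WT control. The medians of the 8 by embryo were 0.48, -0.13 and -0.32 in WT control and 0.29, 0.09, 0.10 and 0.39 in GATA3 KO, so WT control embryo 1 was above all KO embryos. SLC31A1, the copper importer, gave 134.1, 57.3 and 56.0 normalized counts in WT control and 101.3, 83.1, 89.3 and 97.7 in GATA3 KO. SLC39A1, a zinc importer, gave 3.11 to 13.4 and 11.6 to 19.7, and its values are a description, since KO alone brought it in. The exception was SLC39A4, the zinc importer of absorptive epithelia, which was at 239.9, 230.2 and 309.3 in WT control and at 153.4, 124.1, 151.3 and 204.4 in GATA3 KO. No KO embryo reached the WT control range. The log2 fold change was -0.72 (SE 0.24) with a limma adjusted p of 0.092, and DESeq2 on the recovered counts called it.

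**Figure D2:**
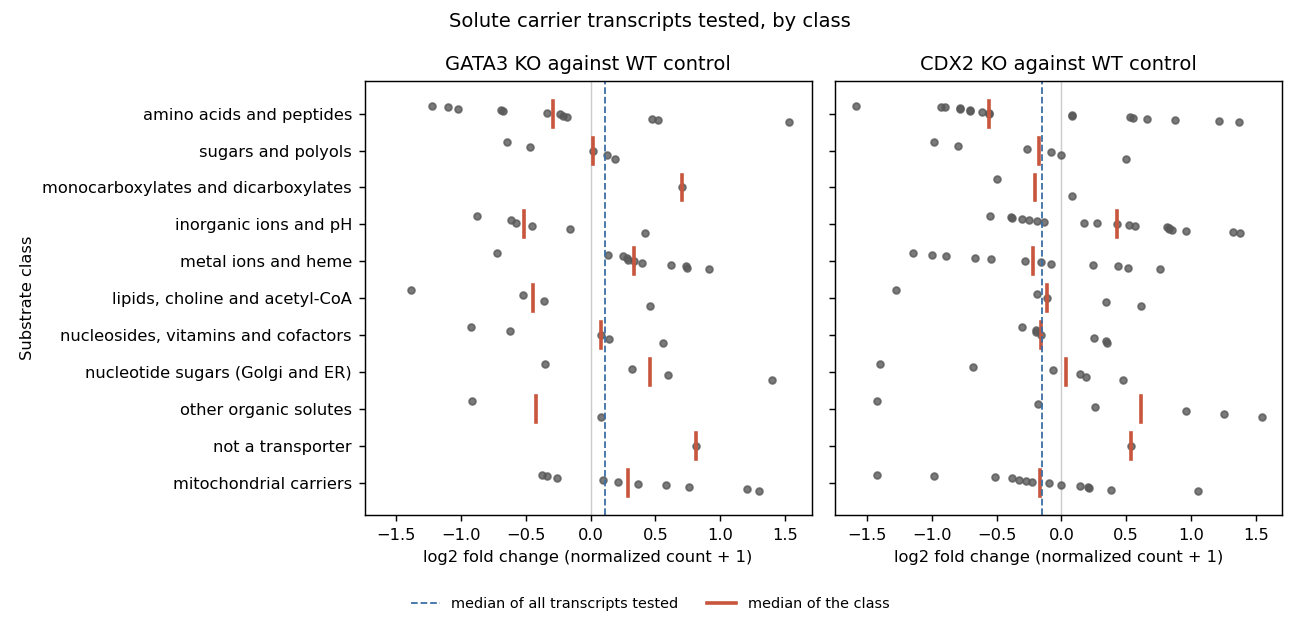
Log2 fold change of normalized count + 1 for each solute carrier transcript tested (points), by substrate class, for GATA3 KO (left, 61 transcripts) and CDX2 KO (right, 96 transcripts) against WT control. Red bars are class medians and the dashed line is the median of all transcripts tested, 0.11 on the left and -0.15 on the right. In GATA3 KO, 10 of 11 metal ion carriers lie above 0 and 9 of 12 amino acid carriers below it, and of those with a mean of 10 in both groups 7 of 8 metal ion and 2 of 11 amino acid carriers lie above 0.

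Of the mitochondrial carriers with a mean of 10 in both groups, 4 of 7 were above 0 in GATA3 KO, at a median log2 fold change of 0.09, beside 0.10 for all such transcripts, and none was past the threshold. SLC25A4, SLC25A17 and SLC25A38 were also tested but came in through KO alone. The class was formed by the SLC25 name, so it also holds SLC25A17, which is not a carrier of the mitochondrial inner membrane. The ADP and ATP carriers, which exchange nucleotides across the inner membrane, did not share a pattern. SLC25A4 was at 15.8, 4.32 and 9.33 normalized counts in WT control and at 30.4, 17.2, 21.4 and 24.6 in GATA3 KO. All KO embryos were the higher, but the transcript met the limit through KO alone. SLC25A5, X-linked by the RefSeq annotation of ARS-UCD2.0, was at 509.7, 275.6 and 387.0 in WT control and at 890.0, 524.3, 1230.3 and 298.0 in GATA3 KO. The 3 KO embryos with at most 2 Y-linked counts were above all WT control embryos, and KO embryo 6 was near the lowest of them, with a log2 fold change of 0.76 (SE 0.36) and a limma adjusted p of 0.22. Leaving out embryo 6 gave a log2 fold change of 1.13 with an adjusted p of 0.041. The table of CDX2 KO had it at 772.7, 378.3 and 543.3 in WT control and at 493.9, 156.1, 1284.6 and 668.4 in KO embryos 2 to 5. Of the 3 KO embryos there with 0 Y-linked counts, embryo 2 lay within, embryo 3 below and embryo 4 above the WT control range. SLC25A6 was at 160.1 to 204.4 and 112.0 to 170.8. SLC25A3, the phosphate carrier, overlapped at 161.0 to 262.8 and 182.7 to 236.5, with a log2 fold change of 0.09 (95% interval -0.41 to 0.60). SLC25A39, which serves mitochondrial glutathione import, was at 28.0 to 39.5 in WT control and at 39.2 to 57.5 in GATA3 KO, where the lowest KO embryo was just under the highest WT control embryo.

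Each of the 5 sugar carriers that met the limit overlapped between the groups in GATA3 KO, and SLC16A1, the 1 monocarboxylate carrier that met it, did not. SLC16A1 moves lactate and pyruvate with protons and gave 102.6, 99.4 and 46.6 normalized counts in WT control and 125.9, 132.7, 108.4 and 147.8 in GATA3 KO. Each KO embryo was above each WT control embryo, with a log2 fold change of 0.70 (SE 0.28) and a limma adjusted p of 0.16. Leaving out WT control embryo 3, the lowest, gave a log2 fold change of 0.34 with an adjusted p of 0.51. SLC2A1, the widespread glucose transporter, was at 72.6, 58.4 and 23.3 in WT control and at 53.5, 67.6, 52.4 and 41.1 in GATA3 KO. Its log2 fold change was 0.19 (95% interval -0.52 to 0.89). SLC2A3, a glucose transporter of high affinity, was at 775.7, 432.3 and 537.8 and at 560.1, 411.8, 303.7 and 393.3. Its log2 fold change of -0.47 had a 95% interval of -1.01 to 0.07. SLC2A5, the fructose transporter, was at 135.2 to 295.1 in WT control and at 196.2 to 212.7 in GATA3 KO, a far narrower range in KO with a log2 fold change of 0.13 (95% interval -0.42 to 0.68).

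In the smaller classes, SLC6A8, the creatine transporter and X-linked by the same annotation, spread over 47.6 to 130.6 and 22.2 to 142.9. SLC27A4, which handles long-chain fatty acids, was at 15.5 to 34.6 in WT control and at 2.46 to 14.5 in GATA3 KO. SLC29A2, a nucleoside transporter, was at 13.99 to 25.3 and at 7.39 to 11.9. SLC27A4 and SLC29A2 met the limit through WT control alone, without overlap. SLC35A4, of the nucleotide sugar family, was above WT control in every KO embryo by a small step, 16.2 to 18.2 against 19.1 to 23.3. SLC7A6OS met the name rule but lies on the strand opposite SLC7A6 and is no transporter, so it is in none of the classes.

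CDX2 KO gave no solute carrier past the threshold, and the KO embryos differed among themselves in the levels of sugar, mitochondrial and metal ion carriers. Of the 79 transcripts with a mean of 10 in both groups, 0 were past the limma threshold, beside 0.0% of the 4890 such transcripts in the table. At an unadjusted p under 0.05 there were 4 of 79 (5.06%), beside 2.25%. All KO embryos lay above WT control for 3 of the 79 (3.80%), beside 1.49%, and below it for 2 (2.53%), beside 3.33%. With the 17 transcripts that reached 10 in 1 group, 96 of 5719 were tested, and 0 were called by limma, edgeR or DESeq2. Over all 5719, limma called 0.0% in either direction, edgeR 0.0175% and DESeq2 0.175%. An unadjusted p under 0.05 was found for 5 of the 96, beside 3.27%, and no overlap for 3 above, beside 2.52%, and 2 below, beside 3.36%. The median log2 fold change of the 96 was -0.08, with 44 above 0, beside -0.15 for all transcripts tested. Without CDX2 KO embryos 2 and 3, 0 of the 96 were past the threshold and the median was 0.06. The median SE of a member was 0.51, against 0.36 in the table of GATA3 KO.

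**Figure D3:**
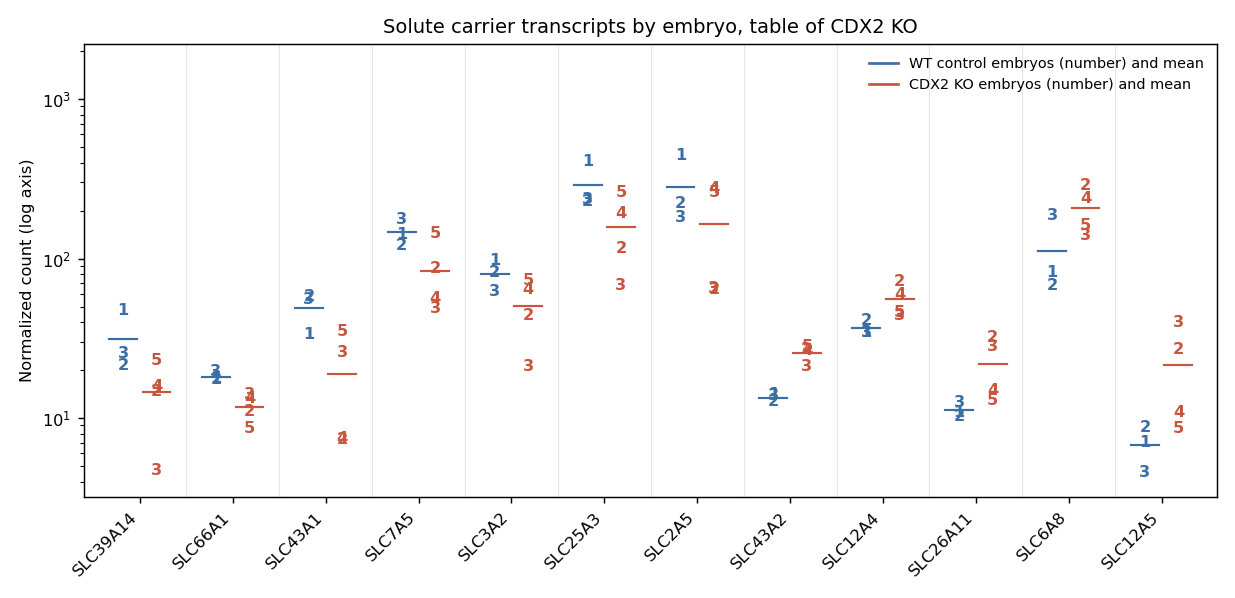
Normalized counts (log axis) of 12 solute carrier transcripts in the table of CDX2 KO, chosen after their values were seen. Each numeral is an embryo, with WT control in blue and CDX2 KO in red, and the short lines are group means. SLC66A1 had every KO embryo below every WT control embryo and SLC43A2, SLC12A4 and SLC26A11 every KO embryo above, while in SLC12A5 KO embryos 2 and 3 stand apart from 4 and 5.

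Of the amino acid carriers with a mean of 10 in both groups, 6 of 16 were above 0 in CDX2 KO, at a median log2 fold change of -0.59, beside 1665 of 4890 and a median of -0.20 for all such transcripts. The medians of the 16 by embryo were 0.04, 0.14 and -0.27 in WT control and -0.74, -0.28, -0.31 and -0.06 in KO embryos 2 to 5, so embryo 5 lay inside the WT control range and embryos 3 and 4 just under it. Without embryos 2 and 3 there were again 6 of 16, at a median of -0.45, beside 2654 of 4890 and 0.04 for all such transcripts. SLC43A2, a carrier of large neutral amino acids, was at 13.96, 12.6 and 13.8 normalized counts in WT control and at 27.0, 21.0, 26.5 and 27.9 in CDX2 KO. Each KO embryo was above each WT control embryo, with a log2 fold change of 0.87 (SE 0.37) and a limma adjusted p of 0.90. Its relative SLC43A1 was at 33.6, 57.7 and 55.0 in WT control and at 7.35, 25.6, 7.46 and 34.9 in CDX2 KO, where embryo 5 reached the WT control range. SLC66A1, which exports cationic amino acids from lysosomes, was at 17.8, 17.4 and 19.5 and at 11.03, 13.98, 13.3 and 8.59. Its groups did not overlap, with a log2 fold change of -0.61 (SE 0.43).

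SLC7A4, the transcript called in GATA3 KO, was at 182.1, 218.0 and 137.6 in WT control and at 154.4, 88.5, 90.4 and 107.4 in CDX2 KO, with CDX2 KO embryo 2 inside the WT control range. Its log2 fold change was -0.71 (95% interval -1.56 to 0.14). SLC7A5 was at 120.8 to 175.4 in WT control and at 87.0, 48.9, 56.4 and 143.4 in CDX2 KO. SLC3A2 was at 97.7, 82.1 and 61.9 and at 44.1, 21.0, 63.9 and 73.0. Both chains were lowest in embryo 3 and highest in embryo 5.

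Of the inorganic ion carriers with a mean of 10 in both groups, 7 of 14 were above 0 in CDX2 KO, at a median log2 fold change of 0.02. The other 5 tested, SLC12A5, SLC26A8, SLC4A9, SLC9A5 and SLC9A9, came in through KO alone. The medians of the 14 by embryo were -0.07, 0.16 and -0.20 in WT control and 0.30, 0.46, -0.15 and -0.10 in KO embryos 2 to 5. Without embryos 2 and 3, a comparison added after seeing the data, 4 of the 14 were above 0 at a median of -0.23. SLC12A4, a potassium and chloride cotransporter of most cells, was at 34.3, 41.1 and 34.4 normalized counts in WT control and at 72.3, 44.3, 59.7 and 46.2 in CDX2 KO. SLC26A11, an anion exchanger, was at 10.8, 10.3 and 12.6 and at 31.9, 28.0, 14.9 and 12.9. In both transcripts all KO embryos were the higher, with log2 fold changes of 0.57 (SE 0.38) and 0.81 (SE 0.45). Without CDX2 KO embryos 2 and 3 these log2 fold changes were 0.52 and 0.29, and with a term for Y-linked counts 0.33 and 0.19. SLC9A3 overlapped at 11.5 to 21.6 and 7.52 to 16.3.

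The sugar carriers with a mean of 10 in both groups had medians of 0.63, 0.06 and -0.32 in the WT control embryos and of -0.67, -0.97, 0.07 and 0.27 in CDX2 KO embryos 2 to 5, over 6 transcripts. Over 12 mitochondrial carriers the KO medians were 0.30, -0.88, 0.06 and 0.31, and over 11 metal ion carriers -0.20, -0.92, 0.14 and 0.39. Embryo 3, the shallowest library, was the lowest in all of these classes, and embryo 2 was near it only for the sugar carriers. Over all transcripts tested the medians of KO embryos 2 to 5 were -0.15, -0.39, 0.05 and 0.10, with embryo 3 again the lowest. Those above 0 were 1 of 6 sugar carriers, 4 of 12 mitochondrial carriers and 4 of 11 metal ion carriers. The whole table had 1665 of 4890 such transcripts above 0, near the shares of the mitochondrial and metal ion carriers. Without embryos 2 and 3 the classes had 6, 7 and 8 above 0, beside 2654 of 4890 for all such transcripts. This shift follows in part from leaving out embryos seen to be low. Of all 14 mitochondrial carriers tested, 5 were above 0, against 9 under quantile normalization, which moved the median of all transcripts tested from -0.15 to -0.04, and 7 under rescaling by median ratios. SLC2A5 was at 442.8, 221.2 and 181.1 normalized counts in WT control and at 63.7, 65.2, 273.7 and 260.4 in CDX2 KO. SLC2A3 was at 1189, 604.2 and 753.1 and at 519.6, 375.1, 1525 and 1470. In both, KO embryos 2 and 3 were under all WT control embryos and the other two were not, and the log2 fold changes were -0.98 (95% interval -2.26 to 0.30) and -0.003 (95% interval -1.17 to 1.16). SLC25A3 was at 408.5, 227.5 and 233.8 and at 115.2, 67.6, 191.6 and 260.9. SLC6A8 was at 81.8, 67.9 and 185.7 and at 285.6, 139.8, 238.0 and 161.6, a log2 fold change of 0.96 (SE 0.46, limma adjusted p = 0.90).

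Some transcripts met the limit in 1 group only, and choosing them by the KO mean fixes that some KO embryo is high. In the table of CDX2 KO, 27 met it through KO alone, and the highest KO embryo was 2 or 3 in 25 of them. Embryos 2 and 3 were the KO libraries with the fewest counts, 218797 and 100731. The share over all transcripts brought in by KO alone is not given here, so the 25 are not read as a trait of solute carriers. The median of the 27 was 4.44, 7.11 and 5.73 normalized counts in WT control and 14.7, 23.3, 7.46 and 4.83 in CDX2 KO embryos 2 to 5. The mean of embryos 4 and 5 reached 10 in 4 of the 27, which were SLC25A17, SLC25A22, SLC38A11 and SLC9A5. None of the 27 had all KO embryos above all WT control embryos, beside 9.9% of all transcripts of the table brought in by KO alone. Of the 27, SLC12A5, which moves potassium with chloride, was at 6.98, 8.69 and 4.59 in WT control and 27.0, 39.6, 10.8 and 8.59 in CDX2 KO. SLC17A7, a vesicular glutamate transporter, was at 1.27, 7.90 and 10.3 and at 33.1, 23.3, 8.29 and 4.83. No count in embryo 3 behind these 27 was above 20, and 3 counts there correspond to 6.99 normalized counts.

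**Figure D4:**
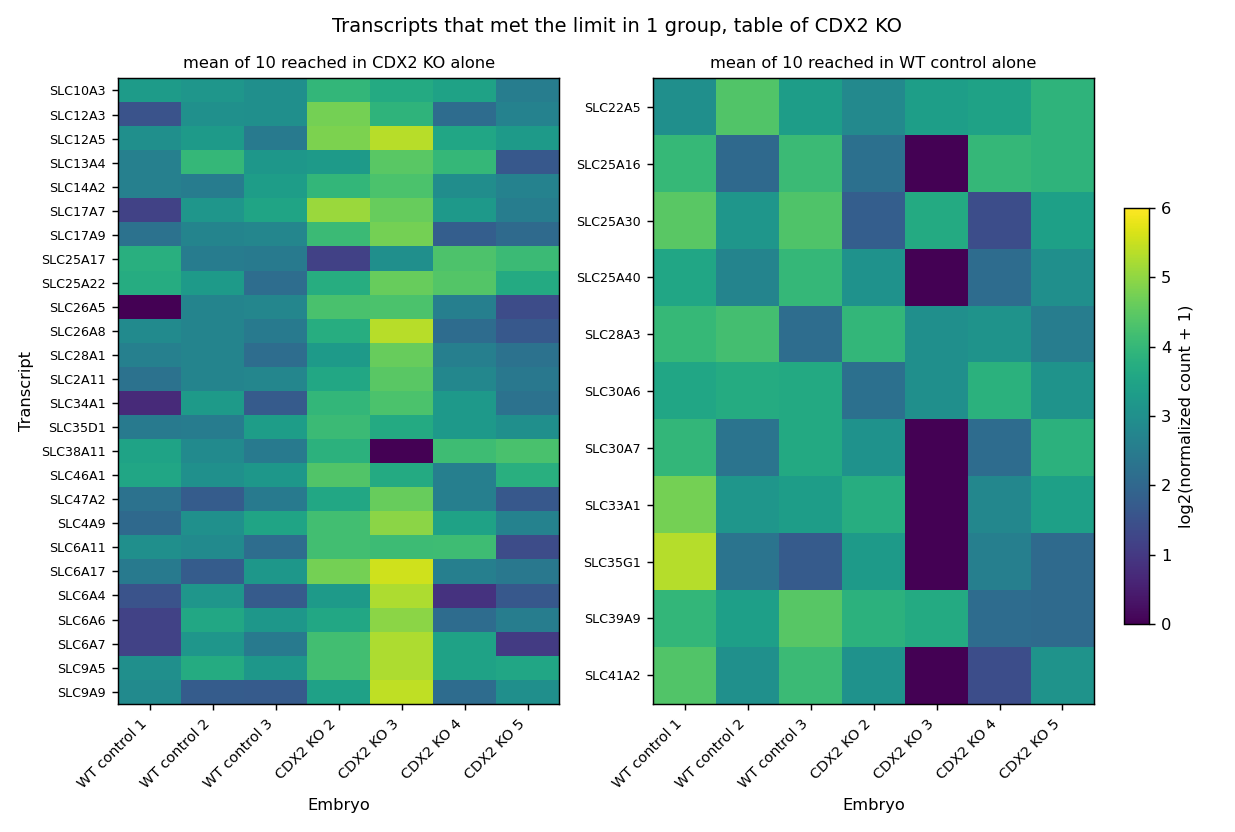
Log2 of the normalized count + 1 (colour) for 26 of the 27 transcripts that reached a mean of 10 in CDX2 KO alone (left) and the 11 that reached it in WT control alone (right), by embryo (columns). On the left the highest KO embryo is 2 or 3 in 24 of the rows drawn. On the right CDX2 KO embryo 3 is at 0 in 6 rows.

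Conversely, 11 transcripts of that table met the limit through WT control alone. CDX2 KO embryo 3 was at 0 counts in 6 of them, and the share over all such transcripts is not given here. The medians of the 11 in KO embryos 2 to 5 were 7.35, 0.0, 4.98 and 7.52 normalized counts, with embryo 3 apart and embryo 2 beside embryo 5. None of the 11 had all KO embryos below all WT control embryos, beside 12.9% of all transcripts brought in by WT control alone. Of these, SLC35G1 was at 39.3, 3.95 and 2.29 in WT control, so 1 embryo brought it in. The table of GATA3 KO had 12 through KO alone, of which 2 did not overlap, beside 24.2% of all such transcripts. It had 20 through WT control alone, of which 8 did not overlap, beside 33.0%. The median of the 20 was 10.7, 16.2 and 13.2 in WT control and 7.24, 7.75, 6.55 and 5.75 in the KO embryos. These counts describe transcripts chosen on the groups' own levels and carry no test. Close to the limit, SLC25A16 (8.38 in WT control and 10.1 in GATA3 KO) was just inside and SLC22A5 (9.78 and 6.74) just outside. In the table of CDX2 KO, SLC30A7 (10.001 and 6.02) was just inside and SLC25A25 (4.02 and 9.87) just outside.

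Proteins that work with solute carriers were taken from a written list of 30, among them BSG, which carries SLC16A1 to the cell surface, the sodium pump subunits, the outer membrane channels VDAC1 to VDAC3 and the lysosomal amino acid sensing complex. In GATA3 KO, 21 were tested, 15 were above 0 and 6 below, at a median log2 fold change of 0.28 (0.11 for all transcripts tested), and 0 were past the threshold. Of all transcripts tested, 57.2% were above 0. Every KO embryo was above WT control for 2 of the 21, beside 11.9%, and below it for 0, beside 7.05%. In CDX2 KO, 21 were tested, 1 was above 0 and 20 were below, at a median of -0.78 against -0.15, with 0 past the threshold and none without overlap. Of all transcripts tested, 39.5% were above 0, and 2.52% and 3.36% had every KO embryo above or below WT control. Quantile normalization left 19 of the 21 below 0. Without CDX2 KO embryos 2 and 3, a comparison added after seeing the data, 8 of the 21 were below 0. Their median was then 0.07 over the 21, beside 0.05 for all transcripts tested. The summed trophectoderm markers ran from 4738 to 11883 normalized counts in WT control and from 2353 to 7888 in CDX2 KO. Cumulus and granulosa cell markers ran from 135.3 to 252.8 and from 135.3 to 203.4, with 11 of 12 listed. The ranges of both lists overlapped between the groups. Trophectoderm markers in the table of GATA3 KO summed to 3379 to 7683 in WT control, against 3503 to 5103 in KO, and the 4 listed inner cell mass markers to 123.9 to 157.0, against 62.2 to 179.8. Cumulus and granulosa cell markers, 5 of 12 listed there, summed to 82.4 to 170.8, against 55.0 to 321.3 in KO. Primitive endoderm markers, 2 of 3 listed, summed to 29.2 to 60.5, against 7.24 to 38.8. The part of any of these lists in the solute carrier values was not tested.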

How the data were processed

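Single early blastocysts were sequenced after oligo(dT) capture by a Smart-seq2 procedure. Per the labels and the study's methods, the authors trimmed reads with Trimmomatic, aligned them with Hisat2 to ARS-UCD1.2, counted them with featureCounts and normalized with DESeq2. The deposited signal values are normalized counts, 1 table per knockout, each with the 3 WT control embryos. In every column 100.0% of values were whole multiples of 1 step (tolerance 0.001), so the read counts were recovered. The WT control embryos held 1.85, 1.78 and 1.83 times the counts in the table of CDX2 KO over transcripts in both. The tables also hold the authors' own fold changes, test statistics and p-values, which were not used. RefSeq accessions were matched to symbols by the gene list of RefSeq for ARS-UCD2.0 (98.6% of rows in each table), so chromosomes are of that assembly and no coordinates are given.

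Values were tested as log2(value + 1) with limma 3.58.1 (trended prior) over transcripts with a mean of at least 10 over the 7 embryos of a table, with Benjamini-Hochberg adjustment over all of them and the threshold of the study's methods (adjusted p no higher than 0.05, fold change of 1.5 or more, or of 0.6 or less). Its results text gives fold changes of 2 and 0.5, which left the counts of solute carriers at 1 and 0. Fold changes on this scale understate those of low transcripts. The main test assumed in the design, should the values be counts, was edgeR, and edgeR 4.0.16 and DESeq2 1.42.0 were run on the recovered counts as alternatives. Standard errors and 95% intervals are limma's. On simulated counts of the GATA3 table, limma called 87.5%, 24.4%, 36% and 98% of transcripts changed by folds of 0.25, 0.5, 2 and 4, and 27.0%, 0%, 4% and 62% in the CDX2 table. Alternatives were the pseudocount, the filter, quantile normalization, rescaling by median ratios, no trend, a term for Y-linked counts (above 3) and leaving out each embryo.

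KO embryos are numbered as in the column names, whose numbering differs from that of the labels, so columns were not matched to single labelled replicates. Members and lists were chosen with earlier results of these data known. Named transcripts were those past the threshold, the 5 highest and 5 lowest fold changes without overlap, members of a written list, and those near or through 1 side of the limit. Others were named for their class after their values were seen. Some transcripts counted among the members are not reported by name here. Levels per length were not compared, since no transcript lengths were used here. Nothing shows that embryos came from separate collections, so p-values measure the spread between embryos, and PCR reads without molecular identifiers are not independent molecules. The limit given for low counts covers counting error only.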

Additional observations from a re-analysis of the deposited data

Results flagged for a closer look

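In groups of 4 KO embryos, 1 embryo stood far from the other 3 in 3 cases among 27 named transcripts in the table of GATA3 KO and 29 in that of CDX2 KO. Chance alone gives about 1 in 20 groups. SLC38A11 was at 27.5 normalized counts in GATA3 KO embryo 3, against 12.3, 14.2 and 14.3 in the other KO embryos. SLC43A1 was at 21.4 in GATA3 KO embryo 5, against 13.0, 13.1 and 14.2. SLC25A11, the mitochondrial carrier of 2-oxoglutarate and malate, was at 43.0 in CDX2 KO embryo 5, against 16.6, 18.6 and 19.6.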

How the results depend on the processing

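No paired analysis was possible because the KO columns are numbered differently from the replicates in the labels, so numbers could not be matched between groups. For GATA3 KO, the count of solute carriers past the threshold was 1. It was 2 with a pseudocount of 5, quantile normalization, rescaling by median ratios or edgeR (SLC7A4 and SLC43A1), 3 with DESeq2 (also SLC39A4), and 0 without the trend or with the Y-linked term. It was also 0 with a mean of at least 100, a filter that left 7 solute carriers and removed SLC7A4 from the test. Leaving out each embryo gave 0 to 5 calls, with 5 without WT control embryo 1, 3 without GATA3 KO embryo 6 and 0 without WT control embryo 2 or 3 or GATA3 KO embryo 3, 4 or 5. The median log2 fold change was -0.37 without a filter (175 transcripts) and -0.17 over the 78 that met the limit in either group, and from -0.10 to 0.12 without each embryo. It was 0.09 as reported and -0.01 under quantile normalization, -0.02 under rescaling by median ratios, -0.04 in edgeR, and -0.05 in DESeq2 and with the Y-linked term, so its sign also depended on the processing. For CDX2 KO, the count was 0 in every alternative run. Its median was 0.19 without a filter, -0.28 with a mean of at least 100, 0.12 under quantile normalization, 0.14 in edgeR and 0.17 in DESeq2, so its sign depended on these choices as well. The cause was not tested. No transcript past the threshold changed direction. In CDX2 KO embryo 3, the depth limits values under 6.99 normalized counts. For the embryos of the table of GATA3 KO this limit ran from 1.29 in KO embryo 4 to 4.66 in WT control embryo 3.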
